A study of Mus musculus with 70 samples.

Results

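The change in cortical neural stem cells (NSC) over the day from embryonic day E14.5 to E15.5 was described from 7 of the 70 libraries of the series, 3 of NSC at E14.5 and 4 of NSC at E15.5. The libraries were chosen by their labels alone. Of 23078 genes in the table of transcript abundances, scaled for gene length and library total (TPM), the 13566 with a mean of at least 1 TPM at either age were tested. All libraries came from wild-type C57Bl/6 mice, and the NSC were green fluorescent cells sorted from dissected dorsal cortex of Hes5::GFP embryos, in which regulatory sequence of Hes5, a Notch target gene, drives the fluorescent protein. Basal progenitors (BP, 3 libraries at E14.5 and 4 at E15.5) and newborn neurons (NBN, 4 libraries at E15.5) were sorted from Tbr2::GFP embryos of the same ages and strain and serve here for comparison. The sources used here do not state how BP and NBN were separated within that line or whether embryos were pooled.

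Cortical stem cells, called radial glia at this age, line the ventricle and either renew themselves or give rise to neurons, directly or through basal progenitors that express Eomes (Tbr2). Notch signalling acts through the repressors Hes1 and Hes5 to hold cells in the stem cell state, while the proneural factors Neurog1 and Neurog2 start neurogenesis and raise the Notch ligand Dll1 in the same cells. Around this age the cortex moves from making neurons of the deep layers to making those of the upper layers, and glia are made later.

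Gene positions are on GRCm38. A level is given per library in TPM, always in the order of replicates 1 to 3 at E14.5 and 1 to 4 at E15.5. A difference is the E15.5 mean minus the E14.5 mean of log2(TPM + 1), with its standard error (SE), on which the change of a low gene is understated. The difference over this day is called the NSC step. A gene is said to have risen or fallen where limma's adjusted p, by Benjamini-Hochberg over the 13566 genes, was below 0.05 and the difference was at least 1.5-fold (0.58 on the log2 scale). TPM keep no depth, so the depth of the libraries is unknown. Nothing in the labels ties replicates to separate embryos or litters, so the scatter behind each p-value could be technical. That scatter is the spread within groups, pooled over all 70 libraries of the series, and not that of the compared libraries alone. The NSC libraries can scatter more than others. Summed over 20 postmitotic neuron genes, the standard deviation was 1363 and 788 TPM in NSC at E14.5 and E15.5. In BP it was 41.2 and 220 TPM, while for genes of the mitochondrial genome it was larger in BP. The SE and p-values printed here can thus be too small for this comparison. With only the 7 libraries in the fit, 1136 genes were called and not 1433.

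The 7 libraries listed 16625 to 17946 genes above 0. Hes5, the gene of the reporter, was at 124.5, 97.5 and 98.8 TPM at E14.5 and 88.0, 88.4, 87.0 and 66.9 TPM at E15.5, so every library held it. All 7 also held transcripts of the neighbouring cell types, with Eomes at 170.3 to 498 TPM and the pan-neuronal tubulin gene Tubb3 at 1381 to 2672 TPM. E14.5 replicate 3 stood apart from the other E14.5 libraries: across genes its correlation was 0.980 to 0.983 with them and 0.983 to 0.987 with the E15.5 libraries, and the library most like it was E15.5 replicate 2. Its summed postmitotic neuron genes were nearest to the E15.5 level, so the counts below are also given without it. In bulk RNA, fewer cells of a type and less RNA per cell cannot be told apart. All libraries are labelled female, but Y-linked transcripts summed to 72.4 to 138 TPM in 6 of them, and in the remaining one, E15.5 replicate 2, to 11.9 TPM with Xist at 103 TPM.

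Between E14.5 and E15.5, 988 genes rose (7.28% of those tested) and 445 fell (3.28%). Under the choice given below, the 12 named risers included the neurofilament gene Nefl and the neuronal transcription factor Mef2c. The 12 named fallers included the proneural gene Neurog1, the immediate early genes Egr1, Fosb and Fos and the nuclear RNA Malat1. Over all tested genes the median difference was -0.01. Of the 988 risers 733 had no overlap between the E14.5 and E15.5 libraries, and of the 445 fallers 354. Over all tested genes 17.1% did not overlap and were higher at E15.5, and 15% did not overlap and were lower. Without E14.5 replicate 3, 1365 genes rose (10.1%) and 679 fell (5.01%), which kept 974 of the 988 risers and 397 of the 445 fallers. Without E14.5 replicate 1, whose correlations with the E15.5 libraries were the lowest (0.955 to 0.972), 571 rose (4.21%) and 390 fell (2.87%), which kept 562 risers and 294 fallers. With each of the 7 libraries left out in turn, 519 risers and 41.6% of the fallers were called every time.

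The 24 genes described first were taken by size from called genes of at least 10 TPM whose E14.5 and E15.5 libraries do not overlap, so their lack of overlap is part of the choice. Predicted, clone, ribosomal, mitochondrial, globin, Xist and Y-linked names were left out first, so the largest rises and falls named here are those among the remaining genes. The largest rise was that of Ttr, the thyroid hormone carrier transthyretin, which is described below with the choroid plexus markers. Sla, which encodes a Src-like adaptor protein, was at 6.01, 12.2 and 26.8 TPM at E14.5 and 95.0, 66.2, 47.2 and 109 TPM at E15.5. Dync1i1, an intermediate chain of the dynein motor that carries cargo along axons, was at 3.62, 6.44 and 13.7 TPM at E14.5 and 50.9, 30.8, 29.9 and 68.2 TPM at E15.5. For both, every E15.5 library was above every E14.5 library, and E14.5 replicate 3 was the highest of its age. They rose by 2.48 ± 0.35 (adjusted p = 5.09e-07) and 2.45 ± 0.27 (adjusted p = 2.42e-09).

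Mef2c, a transcription factor of maturing cortical neurons, was at 4.22, 6.83 and 16.0 TPM at E14.5 and 50.3, 25.8, 25.3 and 43.5 TPM at E15.5. Camk2b, the beta subunit of a calcium-dependent kinase of synapses, was at 14.8, 27.1 and 40.8 TPM at E14.5 and 104, 103, 93.4 and 122 TPM at E15.5. The groups did not overlap for either gene, and the difference was 2.01 ± 0.28 for Mef2c and 2.00 ± 0.26 for Camk2b. Spock1, a secreted proteoglycan gene (2.09 ± 0.26), and Crym, a thyroid hormone binding protein (2.04 ± 0.45), rose too. Opcml (1.95 ± 0.20), Clstn2 (1.91 ± 0.24) and Lingo1 (1.90 ± 0.20) encode neuronal cell surface proteins. Nefl, the light neurofilament (1.86 ± 0.25), and Igfbp3, which binds insulin-like growth factors (1.83 ± 0.26), completed the 12 genes with the largest rises. All 12 were called with each library left out, and E14.5 replicate 3 was the E14.5 library nearest to E15.5 for 10 of them.

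Of the genes that fell, Neurog1, a proneural transcription factor, was at 37.4, 31.3 and 19.6 TPM at E14.5 and 5.89, 9.76, 9.77 and 7.25 TPM at E15.5. The lowest E14.5 library, replicate 3, was above the highest E15.5 library, and Neurog1 (chromosome 13 from 56250478 to 56252163) fell by 1.71 ± 0.23 (adjusted p = 2.2e-07). Gadd45g, a growth arrest gene switched on in cells leaving the stem cell state, was at 437, 387 and 255 TPM at E14.5 and 124.8, 134.9, 166 and 132 TPM at E15.5, again without overlap (-1.33 ± 0.19). Cckar, the receptor for cholecystokinin (-2.05 ± 0.21), Crabp2, a retinoic acid binding protein (-1.61 ± 0.24), Apcdd1, an inhibitor of Wnt signalling (-1.54 ± 0.26), and Hmgn5, a nucleosome binding protein (-1.52 ± 0.27), fell as well. Rmst, a long noncoding RNA of neural progenitors, fell by 1.32 ± 0.26 from a mean of 11.1 TPM. The other 5 of the 12 largest falls were those of Malat1, Lars2, Egr1, Fosb and Fos, described below. Of the 12, 11 were called with each library left out. The exception was Lars2, whose fall was no longer called without E14.5 replicate 2 (-2.21).

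**Figure D1:**
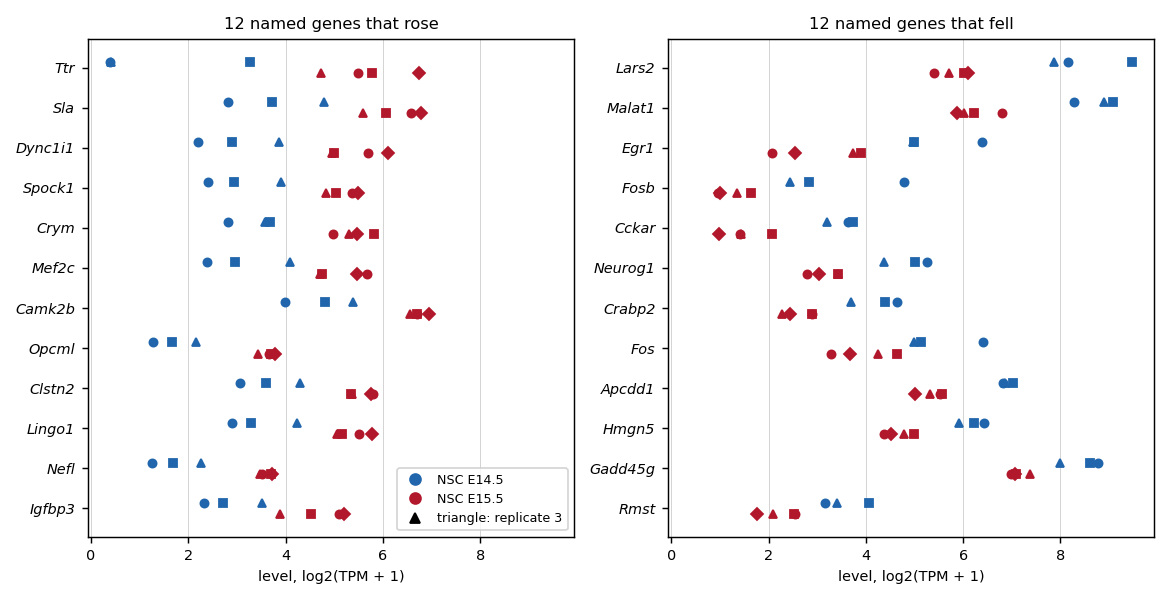
Levels in the 7 NSC libraries of the 12 genes with the largest rises (left) and the 12 with the largest falls (right), as log2(TPM + 1) on the horizontal axis, blue for E14.5 and red for E15.5, with the marker shape giving the replicate. Genes with overlapping groups, below 10 TPM or with names of the kinds left out were not taken. The E14.5 triangle (replicate 3) is the blue point nearest to red for 10 of the 12 risers and 9 of the 12 fallers.

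Promoter sequence was taken from RefSeq (GRCm38.p6) to show what lies before the start sites of some named risers and fallers. Windows were searched for the first 3 named genes a direction by size. The larger risers Ttr, Sla and Crym and the larger faller Egr1 were passed over, being on a chromosome left out of the search or without a usable sequence. The 250 bases before the start are printed 5′ to 3′ on the strand of the gene for Dync1i1 and Mef2c, which held motif matches, and for Fosb, which held none. Capitals mark matches, on either strand, to any of 6 motifs. They were CAGCTG and its relative CAGATG, which are E-boxes, the Rbpj core TGGGAA, the core TTGGCA of nuclear factor I, the CCAAT box, which on the other strand reads ATTGG, and TTTGAA, part of the Tcf and Lef site.
Dync1i1 (chr6:5725389-5725638, plus strand): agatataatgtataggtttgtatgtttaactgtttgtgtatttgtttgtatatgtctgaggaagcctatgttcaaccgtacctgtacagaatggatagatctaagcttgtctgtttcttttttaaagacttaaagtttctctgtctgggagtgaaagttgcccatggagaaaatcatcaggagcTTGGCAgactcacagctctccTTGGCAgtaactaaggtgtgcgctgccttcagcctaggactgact
Mef2c (chr13:83503784-83504033, plus strand, 1 of 3 starts listed): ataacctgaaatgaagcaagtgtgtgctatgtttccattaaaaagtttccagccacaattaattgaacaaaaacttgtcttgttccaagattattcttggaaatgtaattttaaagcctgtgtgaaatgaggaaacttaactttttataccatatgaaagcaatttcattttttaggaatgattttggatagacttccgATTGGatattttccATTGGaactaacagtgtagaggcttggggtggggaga
Fosb (chr7:19310046-19310295, minus strand): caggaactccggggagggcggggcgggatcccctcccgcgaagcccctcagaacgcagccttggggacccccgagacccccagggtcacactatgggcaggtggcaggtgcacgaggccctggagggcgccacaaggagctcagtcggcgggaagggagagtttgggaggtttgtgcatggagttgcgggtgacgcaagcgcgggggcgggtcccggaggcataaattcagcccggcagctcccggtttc
The Dync1i1 window held TTGGCA at 2 places and the Mef2c window held CCAAT at 2 places, both as ATTGG, while the Fosb window held none of the 6 motifs. Windows of 3 more named genes were searched and are not printed, those of the riser Spock1 and the fallers Lars2 and Malat1, and none held a match, so risers with and without a match were found. Of 32851 RefSeq windows of this length, 12.3% held TTGGCA, 33.8% held CCAAT, 13% held CAGCTG, 14.4% held CAGATG, 21.6% held TGGGAA and 16% held TTTGAA. A match is a string of letters and not a shown site.

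The gene lists described from here on were chosen with earlier results of these data known. Their counts beside the shares of all tested genes are a description and not independent support. Most of the listed genes of postmitotic neurons rose in the NSC libraries. Of 20 such genes 13 rose and none fell (background 7.28% and 3.28%), with a median difference of 0.80. Mapt, which encodes the microtubule protein tau, was at 97.6, 144 and 272 TPM at E14.5 and 562, 415, 413 and 585 TPM at E15.5. Stmn2, a tubulin binding protein of growing axons, was at 160.2, 196 and 402 TPM at E14.5 and 727, 537, 529 and 766 TPM at E15.5. Both (Mapt on chromosome 11 from 104231390 to 104332090, Stmn2 on chromosome 3 from 8509360 to 8561606) were higher in every E15.5 library than in any E14.5 library, and in both E14.5 replicate 3 was the highest of its age. The differences were 1.63 ± 0.26 and 1.43 ± 0.20. Syt1, the calcium sensor of synaptic vesicles (1.59 ± 0.30), the neurofilament genes Ina (1.13 ± 0.24) and Nefm (1.01 ± 0.23), Gap43, a growth cone protein (0.85 ± 0.16), and Snap25, a vesicle fusion protein (0.83 ± 0.21), also rose. Of genes that mark neurons from their birth onward, Dcx differed by 0.46 ± 0.25 (adjusted p = 0.16), Neurod2 by 0.25 ± 0.20 (adjusted p = 0.331) and Neurod6 by 0.35 ± 0.21 (adjusted p = 0.213), none of which passed the test.

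Summed over the 20 genes, the neuronal level was 4191, 4871 and 6816 TPM at E14.5 and 8783, 7770.3, 7129 and 8689 TPM at E15.5. The highest E14.5 library, replicate 3, was close to the lowest E15.5 library, and the groups did not overlap. The same sum was 8648 to 8722 TPM in BP at E14.5, 7725 to 8196 in BP at E15.5 and 12480.3 to 13213 in NBN. At E15.5 the NSC and BP ranges overlapped. Without E14.5 replicate 3, 15 of the 20 rose, and without replicate 1, 10.

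Of 26 synapse and excitability genes 10 rose and 1 fell (background 7.28% and 3.28%), with a median of 0.45. Gria1, an AMPA receptor subunit, was at 5.10, 7.504 and 21.5 TPM at E14.5 and 49.4, 23.5, 22.7 and 38.4 TPM at E15.5, without overlap (1.64 ± 0.27). Cplx1, a vesicle release regulator (1.36 ± 0.21), and Grin1, the obligatory NMDA receptor subunit (1.16 ± 0.16), rose too. The single faller was Slc17a6, a vesicular glutamate transporter of young neurons, at 65.4, 73.7 and 57.8 TPM at E14.5 and 31.1, 40.8, 42.2 and 29.6 TPM at E15.5. Each E15.5 library was below each E14.5 library (-0.86 ± 0.19, adjusted p = 0.000371). In BP the same gene rose over the same day, from 45.5 ± 4.18 (SD, n = 3) to 104.5 ± 9.28 TPM (n = 4), and the 2 steps differed by -2.04 ± 0.27 (adjusted p = 4.17e-08). Of 24 axon growth and guidance genes 5 rose (background 7.28%) and none fell (median 0.20), and without E14.5 replicate 1 only 3 rose, with a median of -0.01. The 5 were the Slit receptor Robo1 (1.29 ± 0.30), the netrin receptor Unc5c (0.90 ± 0.25), the adhesion genes L1cam (0.61 ± 0.23) and Ncam1 (0.71 ± 0.24), and Dpysl3, which acts in growth cones (0.94 ± 0.20).

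Some genes of deep and of upper layer neurons rose. Of 13 deep layer genes 5 rose (background 7.28%) and none fell (median 0.33), and without E14.5 replicate 1 only 3 rose. The 5 were Crym, Ldb2 (1.77 ± 0.25), Hs3st4 (1.17 ± 0.24), Tshz3 (0.77 ± 0.20) and Lmo3 (0.68 ± 0.18). The transcription factors that specify deep layer neurons did not pass the test: Tbr1 was at 157, 146 and 217 TPM at E14.5 and 247, 158, 163 and 217 TPM at E15.5 (0.18 ± 0.17), Fezf2 differed by 0.19 ± 0.19 and Bcl11b by 0.25 ± 0.26 (adjusted p = 0.459, 0.448 and 0.481). Of 13 upper layer genes 5 rose (background 7.28%) and none fell (median 0.46). Pou3f1 (1.11 ± 0.17), Lmo4 (1.03 ± 0.14), Inhba (1.22 ± 0.21) and Mef2c were among the risers. Pou3f2, which specifies upper layer neurons, differed by 0.48 ± 0.19 in NSC (adjusted p = 0.0515), with overlapping groups. In BP, Pou3f2 rose by 2.03 ± 0.19 over the same day, and Ldb2 fell by 1.61 ± 0.25.

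**Figure D2:**
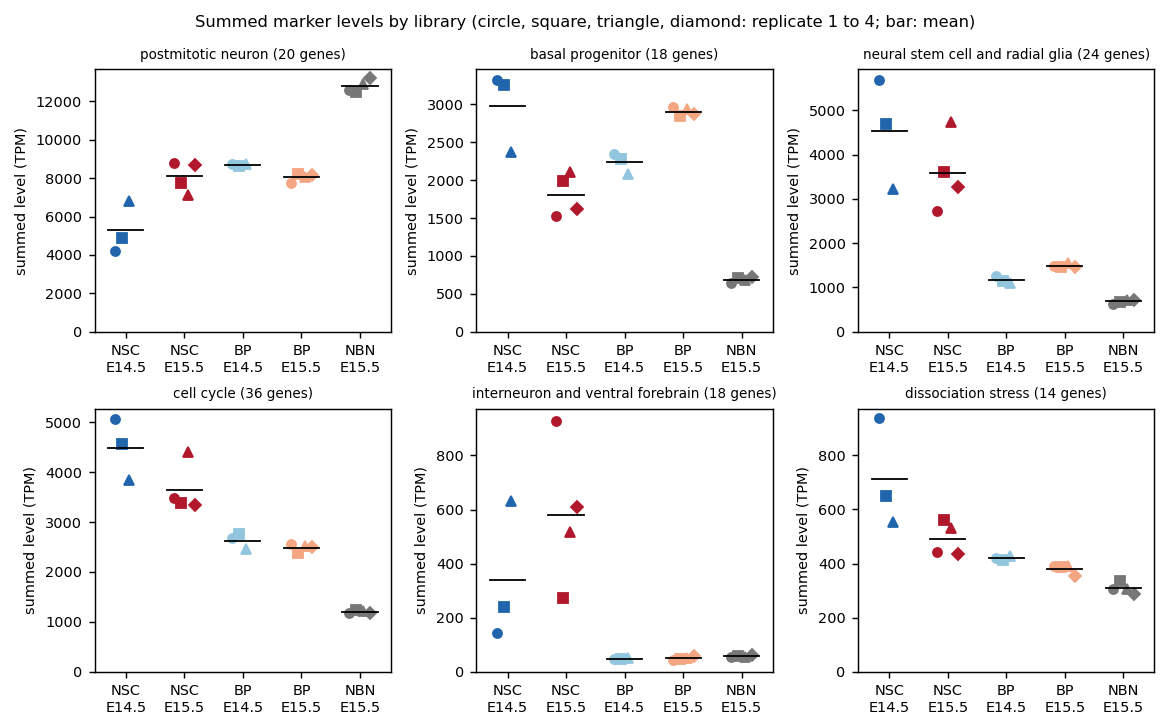
Summed levels in TPM of 6 gene lists in each library of NSC at E14.5 and E15.5, BP at E14.5 and E15.5 and NBN at E15.5, with the marker shape giving the replicate and a bar at the mean. The postmitotic neuron sum is higher and the basal progenitor sum lower in every NSC library at E15.5 than at E14.5, and E14.5 replicate 3 lies nearest to E15.5 in both.

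Most of the listed genes of the basal progenitor program fell. Of 18 such genes 13 fell and none rose (background 3.28% and 7.28%), with a median of -0.75. Eomes, the transcription factor that defines basal progenitors, was at 488, 498 and 301 TPM at E14.5 and 170.3, 302, 298 and 209 TPM at E15.5. The E14.5 libraries 1 and 2 were the highest, and replicate 3 lay among the E15.5 libraries, so the groups overlapped for Eomes (chromosome 9 from 118478212 to 118486132; -0.81 ± 0.23, adjusted p = 0.00477). Neurog2, the main proneural factor of the dorsal cortex, was at 315, 342 and 208 TPM at E14.5 and 135.4, 184, 219.7 and 160.2 TPM at E15.5, also with overlap (-0.71 ± 0.19, adjusted p = 0.00363). Nhlh1, a transcription factor of newly formed neurons, was at 102, 102 and 75.3 TPM at E14.5 and 38.8, 56.4, 45.9 and 36.3 TPM at E15.5, without overlap (-1.06 ± 0.16). Btg2, an antiproliferative gene of neurogenic divisions (-1.06 ± 0.15), Mfng, a Notch modifying enzyme (-0.999 ± 0.14), Rhbdl3 (-0.89 ± 0.20), Mfap4 (-0.79 ± 0.19), Hes6, an antagonist of Hes1 (-0.67 ± 0.10), Neurod4 (-0.66 ± 0.21) and the somatostatin receptor Sstr2 (-0.62 ± 0.18) fell with Neurog1, Gadd45g and Dll1.

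The 5 members that were not called were Neurod1, at 117, 137 and 100.1 TPM at E14.5 and 77.7, 122, 94.3 and 75.8 TPM at E15.5 (-0.36 ± 0.20), Insm1 (0.43 ± 0.12), Dll3 (-0.39 ± 0.15), Elavl4 (-0.50 ± 0.17) and Penk (-0.30 ± 0.22). Insm1, a zinc finger factor that promotes basal progenitor formation, was higher in every E15.5 library than in any E14.5 library, but its difference was under the 1.5-fold minimum (adjusted p = 0.00551). The summed level of the 18 genes was 3329, 3255 and 2368 TPM at E14.5 and 1528, 1986, 2104 and 1614 TPM at E15.5. Every E15.5 library was below every E14.5 library, and E14.5 replicate 3 was again the nearest. The same sum was 2081 to 2342 TPM in BP at E14.5 and 2841 to 2970 TPM in BP at E15.5. Every NSC library at E14.5 was thus above every BP library of that age, and every NSC library at E15.5 below every BP library of that age. Without E14.5 replicate 3, 13 of the 18 fell, and without replicate 1, 11. In BP the list had 3 risers and 2 fallers over the same day (background 11.1% and 3.52%), and the NSC step was lower than the BP step for 14 of the 18 genes (background 16.3%), which was also the count after scaling by median ratios or quantile normalization (background 13.2% and 12.6%).

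Stem cell genes moved in both directions. On the list of 24 genes of neural stem cells and radial glia 3 rose and 5 fell (background 7.28% and 3.28%), with a median of -0.37. Nes, the intermediate filament nestin (chromosome 3 from 87971078 to 87980451), was at 144, 116 and 84.2 TPM at E14.5 and 53.4, 59.0, 73.3 and 53.3 TPM at E15.5, without overlap (-0.91 ± 0.14, adjusted p = 3.16e-06). Pax6, a transcription factor of dorsal progenitors, was at 164, 158 and 101 TPM at E14.5 and 84.4, 99.1, 114 and 72.7 TPM at E15.5, with E14.5 replicate 3 inside the E15.5 range (-0.59 ± 0.18). Sox3 (-0.66 ± 0.21), Prom1 (-0.63 ± 0.13) and the Wnt receptor Fzd8 (-0.70 ± 0.18) fell as well. Sox2, Hes1 and Fabp7 did not pass the test, with differences of -0.20 ± 0.17, -0.14 ± 0.26 and -0.42 ± 0.26. Without E14.5 replicate 3, 11 of the 24 fell, and without replicate 1 only 1, so the number of stem cell genes that fell rested on which E14.5 library was in the fit.

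The 3 radial glia genes that rose are also expressed by glia. Tnc, an extracellular matrix protein of radial glia and astrocytes (chromosome 4 from 63959785 to 64047015), was at 7.29, 13.1 and 7.14 TPM at E14.5 and 18.2, 27.4, 58.4 and 29.7 TPM at E15.5. Ptprz1, a receptor phosphatase, was at 42.4, 62.4 and 64.9 TPM at E14.5 and 103, 97.8, 111 and 91.5 TPM at E15.5. For both, all E15.5 libraries were above all E14.5 libraries, and E15.5 replicate 3 was the highest (1.68 ± 0.28 and 0.85 ± 0.22). Slc1a3, a glutamate transporter, rose by 0.66 ± 0.19, and by 0.47 without E14.5 replicate 3, which was not called.

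In the Notch pathway 4 of 19 genes fell and 1 rose (background 3.28% and 7.28%, median -0.36), and without E14.5 replicate 1, 2 fell and none rose. The ligand Dll1 was at 104, 99.7 and 79.8 TPM at E14.5 and 45.2, 47.2, 45.9 and 38.1 TPM at E15.5, and no E15.5 library reached an E14.5 library (-1.08 ± 0.13, adjusted p = 1.48e-08). Mfng, which modifies Notch receptors, fell with it. The receptor Notch3 (-0.72 ± 0.20) and the effector Hey1 (-0.71 ± 0.13) fell, whereas the receptor Notch1 (-0.36 ± 0.19, adjusted p = 0.148) and the effector Hes5 (-0.37 ± 0.20, adjusted p = 0.156) did not pass. The ligand Jag2 rose (0.73 ± 0.17), and at E15.5 it was at 11.9, 8.73, 9.21 and 10.04 TPM. In BP Jag2 differed by -0.43 ± 0.17, and the NSC step was higher by 1.16 ± 0.24 (adjusted p = 0.000164).

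Of 36 cell cycle genes 3 fell (background 3.28%) and none rose (median -0.31), while 34 of the 36 had a difference below 0, against 50.8% of all tested genes. Mki67, the proliferation marker Ki-67, was at 82.1, 82.3 and 75.8 TPM at E14.5 and 45.3, 38.1, 56.9 and 34.0 TPM at E15.5, without overlap (-0.89 ± 0.24, adjusted p = 0.00413). The kinetochore genes Cenpe (-1.10 ± 0.26) and Cenpf (-1.003 ± 0.24) fell too. Top2a (-0.25 ± 0.18), Ccnb1 (-0.10 ± 0.20) and Mcm5, a replication helicase subunit (-0.55 ± 0.14), were not called. The summed level was 5065, 4557 and 3842 TPM at E14.5 and 3482, 3384, 4396 and 3335 TPM at E15.5, with E15.5 replicate 3 above E14.5 replicate 3, so the groups overlapped. With E14.5 replicate 3 left out, 8 of the 36 fell. Among 12 CDK inhibitors and genes of cell cycle exit, Cdkn1c, which encodes p57, fell (-0.71 ± 0.15), as did Btg2 and Gadd45g, and none rose (background 3.28% falling and 7.28% rising). Cdkn1b, which encodes p27, was at 159, 173 and 150.2 TPM at E14.5 and 163, 157, 178 and 149 TPM at E15.5 and differed by 0.01 ± 0.08, while in BP it rose by 0.92 ± 0.08 (difference of the steps -0.91 ± 0.12, adjusted p = 5.35e-08).

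Immediate early genes respond within minutes to stimuli that include tissue dissociation. Of 12 tested genes of a dissociation stress list, which holds many of them, 5 fell and none rose (background 3.28% and 7.28%, median -0.19). Egr1, a zinc finger factor, was at 82.8, 30.8 and 30.4 TPM at E14.5 and 3.22, 13.98, 12.2 and 4.83 TPM at E15.5. Fosb was at 26.4, 6.12 and 4.45 TPM at E14.5 and 0.942, 2.10, 1.56 and 0.992 TPM at E15.5. In both, replicate 1 was by far the highest E14.5 library, yet replicates 2 and 3 were also above all E15.5 libraries. The differences were -2.39 ± 0.42 for Egr1 and -2.12 ± 0.42 for Fosb, and without E14.5 replicate 1 they were -1.92 (adjusted p = 0.00257) and -1.40 (adjusted p = 0.0171). Fos (-1.55 ± 0.37) and Ier2 (-0.84 ± 0.14) fell as well, and Jun differed by -0.28 ± 0.17 (adjusted p = 0.205). The summed stress list was 938, 649.6 and 554 TPM at E14.5 and 443, 559.9, 529.8 and 436 TPM at E15.5, with E14.5 replicate 3 just under E15.5 replicate 2. Its part in the other changes was not tested.

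Malat1, an abundant long noncoding RNA of the nucleus, was at 308, 541 and 472 TPM at E14.5 and 111, 74.1, 63.6 and 57.3 TPM at E15.5. Each E15.5 library was below each E14.5 library, and Malat1 (chromosome 19 from 5795690 to 5802672) fell by 2.52 ± 0.28 (adjusted p = 4.22e-09). In BP it was at 111 ± 3.05 TPM at E14.5 (SD, n = 3) and 123 ± 15.9 at E15.5 (n = 4), a difference of 0.13 ± 0.28 that was not called, and the steps differed by -2.65 ± 0.40 (adjusted p = 7.497e-07). Lars2, which encodes the mitochondrial leucyl-tRNA synthetase, was at 285, 711 and 232 TPM at E14.5 and 41.2, 63.7, 51.4 and 68.0 TPM at E15.5, with E14.5 replicate 2 the highest (-2.69 ± 0.82). In that library the transcripts AA474408, at 83.8 TPM against 34.3 and 26.2 in the other E14.5 libraries, and Gm26924, at 5344 against 2934 and 2516, were also the highest, and whether they bear on the Lars2 level was not tested. These transcripts were picked out after their values were seen. Among the genes of the mitochondrial genome, mt-Nd6 (-0.79 ± 0.20) and mt-Nd5 (-0.59 ± 0.18) fell, 2 of 13 tested (background 3.28%), and none rose.

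**Figure D3:**
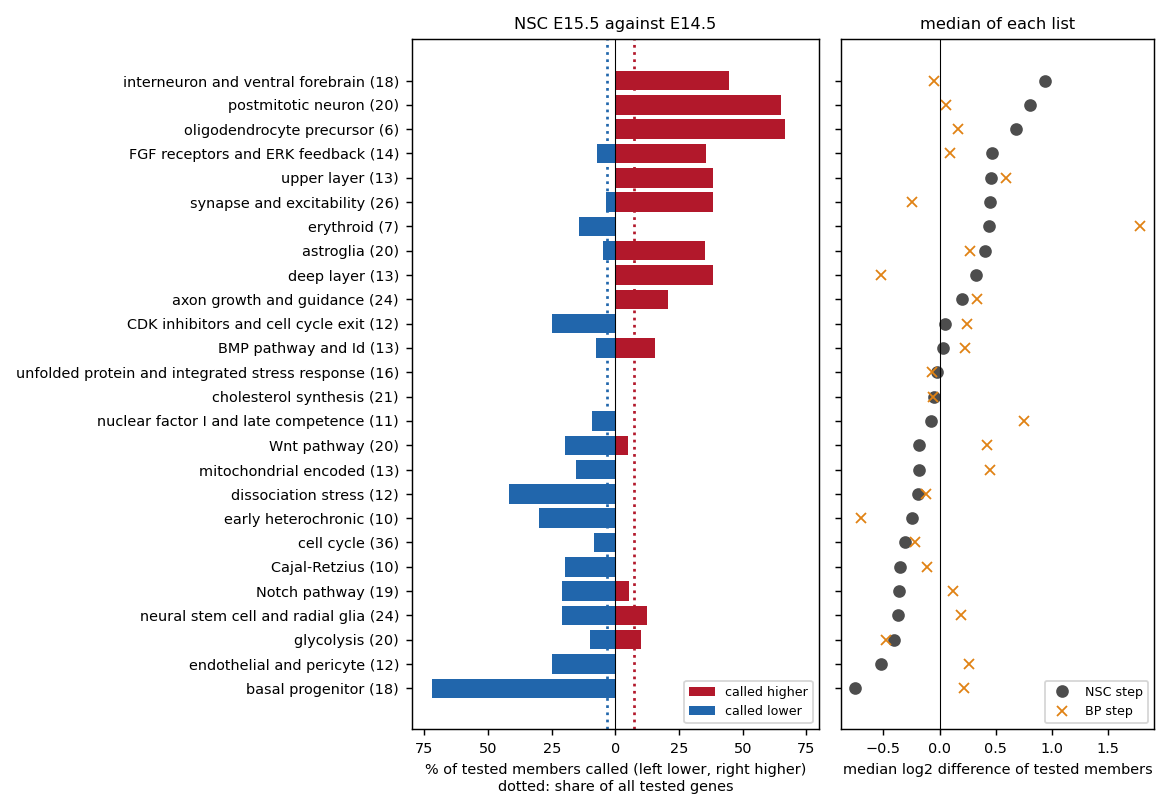
For 26 gene lists with at least 5 tested members (number in brackets), the left panel gives the percent of tested members that rose (red, to the right) or fell (blue, to the left) in NSC, with dotted lines at the shares of all tested genes. The right panel gives the median log2 difference of each list in NSC (dots) and in BP (crosses). The basal progenitor list has the lowest NSC median (-0.75) and the interneuron list the highest (0.94).

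Some glial genes rose from low levels. Of 20 tested astroglia genes 7 rose and 1 fell (background 7.28% and 3.28%, median 0.40). Aldh1l1, a folate enzyme of astrocytes, was at 2.83, 4.21 and 3.71 TPM at E14.5 and 9.25, 6.49, 25.01 and 10.8 TPM at E15.5, with no overlap and E15.5 replicate 3 far above the others (1.45 ± 0.23). Sparcl1, a secreted matrix protein (1.17 ± 0.22), Slco1c1, a thyroid hormone transporter (1.37 ± 0.27), Hepacam, an astrocyte adhesion protein (0.88 ± 0.16), Id3 (0.68 ± 0.24), Slc1a3 and Tnc were the others. The faller was Fgfr3, a growth factor receptor of ventricular zone cells, at 95.8, 112 and 53.9 TPM at E14.5 and 37.4, 60.8, 56.5 and 36.2 TPM at E15.5 (-0.83 ± 0.19). Without E14.5 replicate 3 the list had 5 risers and 4 fallers.

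Of 13 oligodendrocyte precursor genes only 6 had a mean of 1 TPM at either age, and 4 of these 6 rose (background 7.28%), or 2 without E14.5 replicate 1. Olig1, a transcription factor of the lineage, was at 1.61, 2.90 and 3.55 TPM at E14.5 and 8.52, 3.84, 14.9 and 8.47 TPM at E15.5. Pdgfra, the growth factor receptor of precursors, was at 0.535, 1.21 and 1.09 TPM at E14.5 and 2.79, 1.66, 5.15 and 2.47 TPM at E15.5. Both were higher in every E15.5 library than in any at E14.5 (1.35 ± 0.26 and 0.995 ± 0.21), although the lowest E15.5 library in both, replicate 2, was close to the E14.5 range. Olig2 (0.76 ± 0.30, adjusted p = 0.0476) and Egfr (0.59 ± 0.19) rose with overlapping groups. Passing the 1 TPM filter depended on the E15.5 level, so these 6 are not the whole list. Summed over the list, the level was 25.9, 42.2 and 53.4 TPM at E14.5 and 75.7, 32.2, 97.5 and 63.9 TPM at E15.5. In BP libraries of both ages it was 11.4 to 12.9 TPM at E15.5 and 11.3 to 12.1 at E14.5. The interneuron and ventral forebrain list, described below, summed to 144, 241 and 632 TPM at E14.5 in NSC. At E15.5 it summed to 927, 272, 516 and 609 TPM. Both lists were lowest in replicate 1 at E14.5 and in replicate 2 at E15.5, but highest in different libraries at E15.5. The part of ventral cells in these rises was not tested.

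In the FGF and ERK feedback group 5 of 14 genes rose and 1 fell (background 7.28% and 3.28%, median 0.47). Etv5, a transcription factor induced by FGF signalling, was at 19.9, 18.8 and 14.2 TPM at E14.5 and 28.5, 32.2, 42.9 and 28.4 TPM at E15.5, without overlap (0.86 ± 0.20, adjusted p = 0.00066). Its relative Etv4 (1.07 ± 0.23), the ERK phosphatase Dusp6 (0.91 ± 0.19), the ERK inhibitor Spred2 (0.92 ± 0.14) and the ligand Fgf18 (0.81 ± 0.22) rose, and no group of libraries overlapped in any of them. The faller was Fgfr3. In BP, Dusp6 and Fgf18 fell over the same day (-0.64 ± 0.19 and -1.38 ± 0.22), and the steps differed by 1.55 ± 0.26 and 2.19 ± 0.31.

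Of 10 early heterochronic genes, which are high in young progenitors, 3 fell (background 3.28%), none rose and 7 were not called, with a median of -0.24. Hmga2, a chromatin protein of young stem cells, was at 13.9, 8.88 and 6.23 TPM at E14.5 and 4.90, 4.05, 5.33 and 4.07 TPM at E15.5 (-0.88 ± 0.26, adjusted p = 0.00819). Igf2bp2, an RNA binding protein, fell by 0.73 ± 0.16, and Crabp2 was the other. Each of the 3 had no overlap. Of 11 genes of the nuclear factor I family and late competence only 1, the RNA binding protein gene Zfp36l1, fell (-0.76 ± 0.22, background 3.28%), and it was not called without E14.5 replicate 1. None rose. Nfia, Nfib and Nfix, factors of the later gliogenic phase, differed by -0.38 ± 0.17, -0.07 ± 0.21 and 0.45 ± 0.28 without a call. In BP, 6 of these 11 rose, among them Nfib (0.76 ± 0.21) and Nfix (0.78 ± 0.28), against 11.1% of all tested genes, and 6 of the 11 had a lower step in NSC than in BP, against 16.3%. After quantile normalization 6 of the 11 rose in BP (background 6.55%) and 5 had the lower step (background 12.6%).

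Of 20 Wnt pathway genes 4 fell (background 3.28%) and 1 rose, a share below the 7.28% of all tested genes. The receptor Fzd9 (-0.91 ± 0.21), the transcriptional repressor Tcf7l1 (-0.97 ± 0.20) and the Wnt enhancer Rspo1 (-0.93 ± 0.24) fell with Fzd8, and the related enhancer Rspo3 rose (0.81 ± 0.24). Among 13 BMP and Id genes, Id2 (0.75 ± 0.12) and Id3 rose and Id4 fell (-0.98 ± 0.19), beside a background of 7.28% rising and 3.28% falling. Id4, which blocks differentiation factors, was at 307, 233 and 141 TPM at E14.5 and 118, 109, 121 and 91.6 TPM at E15.5, with replicate 1 the highest and no overlap. In glycolysis 2 of 20 genes rose and 2 fell (background 7.28% and 3.28%, median -0.41), and 16 of the 20 had a difference below 0. For 11 of the 20 every E15.5 library was below every E14.5 library, against 15% of all tested genes. The summed level was 9263, 7317 and 7088 TPM at E14.5 and 5732, 6201, 6469 and 6047 TPM at E15.5, without overlap. Of the hexokinases, Hk1 rose (0.87 ± 0.15) and Hk2 fell (-0.70 ± 0.16). Eno2, the neuronal enolase, rose (0.74 ± 0.17), and Tpi1 fell (-0.59 ± 0.09), while Ldha, which makes lactate, differed by -0.41 ± 0.10, under the minimum. With E14.5 replicate 3 left out, 8 of the 20 fell. None of 21 cholesterol synthesis genes and none of 16 genes of the unfolded protein and integrated stress response was called.

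Markers of ventral forebrain and interneurons, cells that migrate into the cortex from below it, varied widely between libraries of the same age. Dlx2, a factor of ventral progenitors (chromosome 2 from 71543408 to 71546754), was at 12.7, 31.5 and 104 TPM at E14.5 and 141, 32.0, 107 and 102 TPM at E15.5. Lhx6, which marks interneurons of the medial ganglionic eminence, was at 3.97, 5.14 and 19.7 TPM at E14.5 and 52.6, 17.4, 15.8 and 35.9 TPM at E15.5. The lowest E15.5 library lay within the E14.5 range in both. Of 18 such genes 8 rose and none fell (background 7.28% and 3.28%, median 0.94), including Lhx6 (1.70 ± 0.47), Dlx2 (1.23 ± 0.42), Gad1, an enzyme of GABA synthesis (1.23 ± 0.43), and the neuropeptide gene Npy (1.44 ± 0.46). Without E14.5 replicate 1 only 1 rose, Maf (0.78), and without E14.5 replicate 3, 14 rose. The sum was 144, 241 and 632 TPM at E14.5 and 927, 272, 516 and 609 TPM at E15.5, against 44.5 to 56.3 TPM in BP and 53.9 to 60.1 in NBN at E15.5. The part of these cells in the neuronal rises was not tested. The neuronal sums of the same libraries were 4191, 4871 and 6816 TPM at E14.5 and 8783, 7770.3, 7129 and 8689 TPM at E15.5.

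Among markers of other cells, Ttr was at 0.311, 8.60 and 0.329 TPM at E14.5 and 43.8, 53.9, 25.5 and 107 TPM at E15.5, a rise of 4.33 ± 0.98 (adjusted p = 0.000569) without overlap. Ttr is the main product of the choroid plexus. Of 10 listed genes of meninges and choroid plexus 4 were tested, and Ttr was the 1 that rose (background 7.28%). All 4 had a difference above 0 (median 0.53), while 50.8% of all tested genes were below 0. A low gene could pass the 1 TPM filter by its E15.5 level alone, so these 4 are not the whole list. Without Ttr the list summed to 4.77, 6.29 and 4.05 TPM at E14.5 and 7.26, 7.53, 8.59 and 8.68 TPM at E15.5, higher in every E15.5 library. Kcnj13, another choroid plexus gene, was at no more than 0.655 TPM in any NSC library. In BP, Ttr was at 37.3 ± 23.3 TPM at E14.5 (SD, n = 3) and 40.5 ± 32.4 at E15.5 (n = 4). Its source was not tested. Of 12 tested endothelial and pericyte genes 3 fell (background 3.28%) and none rose, while 8 fell without E14.5 replicate 1 and 1 without replicate 3. Pecam1, at 0.742, 5.89 and 2.81 TPM at E14.5 and 0.909, 0.982, 1.33 and 0.683 TPM at E15.5 (-0.86 ± 0.30), and Rgs5 (-1.05 ± 0.26) were among the 3. Their sum was 12.4, 80.5 and 50.6 TPM at E14.5 and 23.1, 19.98, 32.2 and 22.6 TPM at E15.5, highest in E14.5 replicate 2 and lowest in E14.5 replicate 1. Of 7 tested erythroid genes 1 fell (background 3.28%), the embryonic globin Hbb-y, at 0, 26.5 and 19.8 TPM at E14.5 and 0.629, 0.951, 0.681 and 0.662 TPM at E15.5. It was listed at 0 in E14.5 replicate 1, so the other 2 libraries carried the fall (-2.26 ± 0.76), which was not called without E14.5 replicate 3. Of 10 Cajal-Retzius genes, which mark early neurons of the cortical surface, Ebf2 (-1.08 ± 0.23) and Ebf3 (-0.72 ± 0.16) fell (background 3.28%), and Reln differed by -0.04 ± 0.27. Of 12 microglial genes 2 passed the level filter.

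The same day was compared in BP libraries, which share no sample with the NSC libraries. There 1503 of the 13566 genes rose (11.1%) and 478 fell (3.52%), so 75.9% of calls were upward, against 61.4% after scaling by median ratios and 56.7% after quantile normalization. Most genes called in NSC did not move the same way in BP. Of the 988 NSC risers 84 rose in BP (8.5% of the risers and 5.59% of the BP risers) and 236 fell (23.9% of the risers and 49.4% of the BP fallers). Of the 445 NSC fallers 29 fell in BP (6.52%, and 6.07% of the BP fallers) and 73 rose (16.4%, and 4.86% of the BP risers). The median BP difference was -0.21 over the NSC risers and 0.19 over the NSC fallers. Across all genes the Pearson correlation of the steps was -0.18, a description over genes, which are not independent replicates. NBN libraries are labelled only from E15.5 on, and the sources used here do not state whether BP were gated in the same way at E14.5.

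The difference between the NSC step and the BP step was itself tested. It was called for 3537 genes (26.1%), 1329 with a higher step in NSC (9.8%) and 2208 with a lower one (16.3%). Scaling by median ratios gave 1606 higher and 1787 lower, and quantile normalization 1539 and 1709, so the excess of lower steps rested in large part on the scaling. Ndrg1, a stress and differentiation gene, rose in NSC, where it was at 24.1, 33.6 and 70.1 TPM at E14.5 and 139, 104, 92.7 and 161 TPM at E15.5, and fell in BP from 152 ± 24.2 (SD, n = 3) to 33.4 ± 3.47 TPM (n = 4), with a difference of the steps of 3.78 ± 0.39 (adjusted p = 2.19e-10). The synaptic vesicle gene Rph3a (3.70 ± 0.38) and Sla (4.03 ± 0.50) did likewise. Grik3, a kainate receptor subunit (3.69 ± 0.61), fell by 2.77 ± 0.43 in BP and was not called in NSC (0.92 ± 0.43, adjusted p = 0.0945). Ttr, which was not called in BP, had the largest difference of the steps (4.19 ± 1.38).

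Among genes with a lower step in NSC, Egr1 (-2.84 ± 0.60) and Malat1 fell in NSC and were not called in BP. Hmgn5 fell in NSC, where it was at 84.8, 73.4 and 59.1 TPM at E14.5 and 19.8, 30.98, 26.4 and 22.0 TPM at E15.5, and rose in BP by 1.01 ± 0.27 (-2.52 ± 0.38, adjusted p = 7.62e-07). Slc15a2, a peptide transporter, also fell in NSC (-1.04 ± 0.38) and rose in BP (1.43 ± 0.38). Unc5d, a netrin receptor of upper layer precursors, was at 22.2, 38.8 and 30.1 TPM at E14.5 and 24.2, 34.5, 31.1 and 22.4 TPM at E15.5, which overlapped (-0.10 ± 0.24), while in BP it rose from 15.8 ± 1.11 to 82.8 ± 3.28 TPM (2.32 ± 0.24). Among genes called the same way in both, Crabp2 fell by 1.61 ± 0.24 in NSC and fell by 1.61 ± 0.24 in BP, Apcdd1 fell in both (-1.54 ± 0.26 and -1.22 ± 0.26), and Tcf7l1, Igf2bp2 and Cdkn1c fell in both. Bhlhe22, Pou3f1 and Lmo4 rose in both.

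The NSC step was also set beside the contrast of NBN with BP at E15.5, which uses no NSC library. In that contrast 1393 genes were higher in NBN (10.3%) and 1615 lower (11.9%), a balance that turned with scaling by median ratios (1584 higher and 1372 lower) and with quantile normalization (1478 and 1438). Of the 988 NSC risers 677 were higher in NBN than in BP (68.5%, and 48.6% of the genes higher in NBN), 23 were lower and 288 were not called. Of the 445 NSC fallers 211 were lower in NBN (47.4%, and 13.1% of the genes lower in NBN), 3 were higher and 231 were not called. Across genes the correlation was 0.57, again a description. Of the 12 named risers 10 were higher in NBN, among them Mef2c (3.56 ± 0.26) and Dync1i1 (3.55 ± 0.25), and of the 12 named fallers 6 were lower, such as Neurog1 (-1.19 ± 0.22). In E14.5 NSC all 12 risers stood below their mean in E14.5 BP. They were chosen for large rises, which low E14.5 NSC levels favour, so this is not separate support. The share over all tested genes was not computed.

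**Figure D4:**
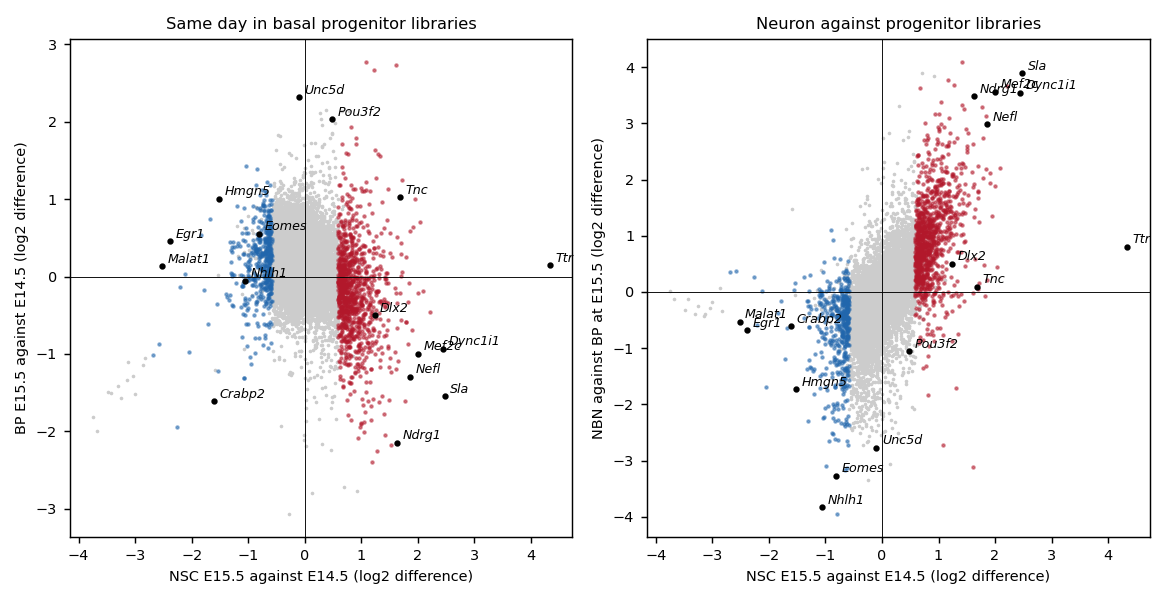
Each point is a gene, with its log2 difference in NSC from E14.5 to E15.5 on the horizontal axis and, on the vertical axis, its difference in BP over the same day (left) or between NBN and BP at E15.5 (right). Red points rose and blue points fell in NSC. The correlation over 13566 genes is -0.18 on the left and 0.57 on the right, and Tnc, Crabp2 and Malat1 are examples away from the trend on the right.

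Some genes of the NSC step were not called the same way between NBN and BP, which does not show that they did not differ there, and NBN were not compared with NSC. The following genes were picked after their values were seen. Risers not called higher in NBN than in BP included Crym, Tnc, Aldh1l1, the neuropeptide gene Cck (1.17 ± 0.38), Nr4a3, an orphan nuclear receptor (1.71 ± 0.27), the protocadherin Pcdh8 (1.15 ± 0.17), Nos1, which makes nitric oxide (1.10 ± 0.29), and Luzp2 (1.08 ± 0.30). Nr4a3 was at 6.61, 11.9 and 13.96 TPM at E14.5 and 33.3, 43.4, 35.1 and 34.4 TPM at E15.5, and it also rose in BP (1.25 ± 0.27). Fallers not called lower in NBN included Malat1, Lars2, Egr1, Fosb, Fos, Apcdd1, Nes, Id4 and Tcf7l1. Col18a1, a basement membrane collagen, was at 20.4, 18.8 and 11.7 TPM at E14.5 and 7.40, 8.12, 6.55 and 5.31 TPM at E15.5 (-1.17 ± 0.18), and Mcam, a surface glycoprotein, fell by 1.11 ± 0.20. Srsf5, a splicing factor, was at 562, 531 and 505 TPM at E14.5 and 289, 326, 267 and 277 TPM at E15.5, with the 2 groups far apart (-0.88 ± 0.10, adjusted p = 2.04e-09).

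In the longer course of NSC libraries, given as means ± SD without a test, the step had several shapes. Neurog1 went from 39.0 ± 6.19 TPM at E13.5 (n = 4) through 29.4 ± 9.02 (n = 3) and 8.17 ± 1.93 (n = 4) to 3.21 ± 2.19 at E16.5 (n = 4). Mapt went from 171 ± 90.4 to 494 ± 92.8 TPM, was at 496 ± 165.1 at E16.5 and at 154 ± 46.6 at E17.5 (n = 3). Tnc continued upward, at 33.4 ± 17.4, 129 ± 50.5 and 426 ± 77.4 TPM at E15.5, E16.5 and E17.5. Other genes alternated from day to day. Malat1 was at 59.4 ± 26.8, 441 ± 119, 76.5 ± 24.05, 927 ± 216 and 104 ± 19.5 TPM from E13.5 to E17.5. Lars2 was high and low at the same ages, at 163 ± 80.6, 409.7 ± 263, 56.1 ± 12.1, 2409 ± 4303 and 122 ± 32.7 TPM. Egr1 was at 11.7 ± 4.74, 48.0 ± 30.1, 8.56 ± 5.33 and 107 ± 24.9 TPM from E13.5 to E16.5. The labels give no batch, and ages and any batch of library preparation cannot be told apart.

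**Figure D5:**
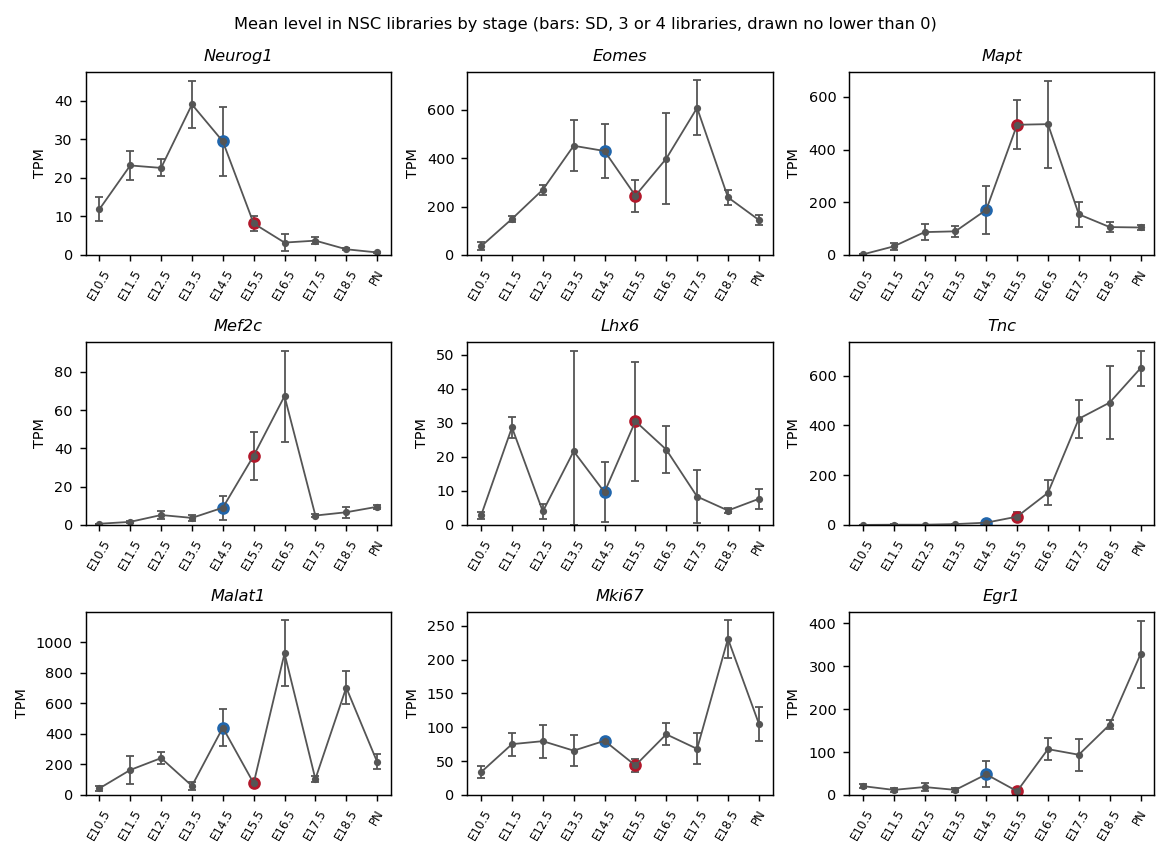
Mean level in TPM of 9 genes in NSC libraries at each age from E10.5 to day 1 after birth (PN), with SD bars over 3 or 4 libraries, E14.5 in blue and E15.5 in red. Neurog1 declines after E13.5, Mapt and Mef2c are highest at E15.5 and E16.5, Tnc climbs to the end, and Malat1 alternates between high and low ages.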

How the data were processed

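RNA was sequenced from sorted cells as short single-end reads, per the labels' protocols. The deposited TPM per gene were made by the authors. The submitters' processing notes name kallisto 0.43.0 and the mouse builds mm10 and GRCm38.p2. TPM are scaled to a common total and keep no depth, so no counting interval was computed, and an exact 0 means only listed at 0. Files were mapped to samples by column name, with 0 columns left unmapped.

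On log2(TPM + 1), limma 3.58.1 (R 4.3.3) estimated 1 mean per cell type and age over all 70 libraries (23 groups, 47 residual degrees of freedom), with a variance trend. Tests were two-sided. Genes called had an adjusted p below 0.05 over 13566 genes and at least a 1.5-fold difference. The fit was tested on simulated data, drawn with each gene's spread pooled over all groups and not that of the NSC libraries alone. It recovered 50% of changes of 0.6 on the log2 scale, 92% of changes of 1 and 100% of changes of 1.5 and 2. The 12 largest called differences a direction without overlap and of at least 10 TPM were named, leaving out predicted, clone, ribosomal, mitochondrial, globin, Xist and Y-linked names, then list members and the 5 largest differences from BP a direction. Members and the 28 lists (460 genes, 410 tested) were chosen with earlier results of these data known. Positions are GENCODE vM21 (GRCm38), found for 22361 of 23078 identifiers. Promoters are RefSeq. Alternatives covered pseudocount, filter, scaling, spread, replicate number, Xist, fold and each library. Some list members are not reported by name here.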

Additional observations from a re-analysis of the deposited data

Results flagged for a closer look

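Over 57 list sums and named genes checked for a library far from the others of its group, 2 stood out in the 4 E15.5 libraries, and chance gives about 1 in 20 groups. The cell cycle list summed to 4396 TPM in E15.5 replicate 3, above the other 3 libraries, and the axon growth and guidance list summed to 3649 TPM in E15.5 replicate 1. The cause of either was not tested.

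The NSC step differed from the BP step for 3537 genes by limma. Of the 29 genes named by size, 24 had a called difference between the steps, against 26.1% of all tested genes. Some were named because this difference was called and large, and the others for a large NSC step, which is part of it. The choice favoured called differences, so this count is not separate support for a difference between the steps. The step was higher in NSC for Ttr (4.19 on the log2 scale), Sla (4.03), Ndrg1 (3.78), Rph3a (3.70), Grik3 (3.69), Dync1i1 (3.38), Nefl (3.16), Mef2c (3.00), Igfbp3 (2.71), Lingo1 (2.60), Spock1 (2.28), Camk2b (2.22), Clstn2 (1.27) and Opcml (0.94). It was lower in NSC for Egr1 (-2.84), Malat1 (-2.65), Hmgn5 (-2.52), Slc15a2 (-2.47), Unc5d (-2.42), Fosb (-2.15), Rmst (-1.76), Neurog1 (-1.09), Cckar (-1.07) and Gadd45g (-1.03).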

How the results depend on the processing

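The NSC count of 1433 called genes moved to 696 with a pseudocount of 5, to 4274 with no minimum on the fold and to 343 with a 2-fold minimum, and ran from 961 to 2044 with 1 library left out. In BP the count was 1072, 5079 and 351 under the same settings and 1701 to 2115 with 1 library left out, against 1981. For the difference of the steps it was 2348, 5479 and 1442, and 3008 to 3889, against 3537. For NBN against BP it was 1980, 6723 and 1380, and 2965 to 3043, against 3008. The 24 genes named for their NSC steps were called in 23 to 24 cases with 1 library left out. Median ratio scaling gave 1423 NSC calls, quantile normalization 1399 and a filter of at least 5 TPM 1089. With only the compared libraries in the fit there were 1136 NSC calls, and 25 of the 159 genes named in the text gave a weaker result. In that fit adjusted p was far larger for Dync1i1, Cckar, Camk2b, Btg2 and Aldh1l1, though still below 0.05, and slightly smaller for Cck. All 24 genes named for their NSC steps were still called in it.

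The labels do not say whether a replicate number pairs samples of different groups. The correlations of same-numbered deviations were -0.493, 0.0568 and -0.347 in NSC and 0.018, 0.0583 and 0.351 in BP. Over so few libraries a group, these values can neither show nor exclude a pairing. With the replicate number as a block the counts were 1491 in NSC, 1978 in BP, 3533 for the difference of the steps and 3007 for NBN against BP. The unknown depth limits what can be said of genes near 1 TPM.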
